A study of Mus musculus with 6 samples.

Results

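The genes of the NCoR-HDAC3 co-repressor complex, together with further histone deacetylases that the complex recruits or that share its work, were followed in the cortex of mice with a Setd5 mutation. They were taken by name, as 9 genes of the 55450 in the files: Ncor1, Hdac3, Tbl1x, Tbl1xr1 and Gps2 as core subunits, Hdac1 and Hdac2 as class I deacetylases, and Hdac4 and Hdac5 as class IIa deacetylases. All 9 passed the filter on low counts, which left 27939 genes. Messenger RNA was measured by sequencing in 6 libraries of adult cerebral cortex, 3 labelled Setd5 heterozygous (het) and 3 labelled wildtype (WT). The sources used here give neither the altered part of Setd5 nor the strain, sex or exact age of the mice. No other allele or treatment is named for either group. Since the labels tie no library to a separate animal, p-values speak of the spread among these 6 libraries, part of which may be technical.

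NCoR, encoded by Ncor1, is a large scaffold protein that unliganded nuclear receptors and other repressors bring to their target genes. The scaffold binds Hdac3 and switches on its activity, which removes acetyl groups from histones. The WD40 repeat proteins encoded by Tbl1x and Tbl1xr1 and the small protein encoded by Gps2 complete the core, and the Setd5 protein is known to associate with this complex. Hdac1 and Hdac2 work mainly in the Sin3, NuRD and CoREST complexes. Hdac4 and Hdac5 have little catalytic activity of their own, move between cytoplasm and nucleus with neuronal activity, and bind both Mef2 factors and the NCoR-HDAC3 complex.

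Totals ran from 82850628 to 92860628 counts per library. Setd5 itself stood at 69.5, 68.8 and 75.3 CPM (counts of a gene per 1000000 of the library total after TMM scaling) in het libraries 1 to 3, against 111, 97.0 and 107.5 CPM in WT libraries 1 to 3, or 67.7% of the WT level (95% interval 60.6% to 75.6%). Its adjusted p in edgeR's quasi-likelihood test was 0.258, and 3.08e-07 in DESeq2. Excitatory neuron markers summed to between 3218 and 3575 CPM in het and between 3307 and 3576 CPM in WT libraries, and no marker of the 11 cell type lists was at 0. Xist, the transcript of the inactive X chromosome, stood at 865 CPM in het library 3 and at 784 CPM in WT library 3, and at 0.876 CPM or less in the other libraries. The summed striatum markers reached 874.6 CPM in WT library 3, against 120 to 348 CPM in the other 5 libraries of both genotypes, and the title of this library follows another pattern than the other 5. In tissue RNA such as this, fewer cells of a type and less RNA per cell cannot be told apart.

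None of the 9 co-repressor genes passed edgeR's test between genotypes, and most of them differed little from WT. Of the 9, 6 had a fitted level below WT and 3 above it, with a median log2 difference of -0.02, against -0.0005 over all genes tested. Fitted levels ran from 84.3% of WT for Hdac1 to 102% for Hdac2. For 8 of the 9 the 95% interval lay between 81.8% and 119% of the WT level, and the interval of Hdac1 reached down to 69.2%. Tbl1xr1 and Hdac1 were the members whose het libraries all lay below every WT library.

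At an adjusted p under 0.05 edgeR's quasi-likelihood test called 0 of 9 members, where it called 0% of the genes tested. DESeq2 called 0 of 9, where it called 0.222% of genes, edgeR's likelihood ratio test called 0 of 9, where it called 0.104%, and limma-voom called 0 of 9 both without library quality weights, where it called 0%, and with them, where it called 0.00716%. DESeq2's default filter can leave genes without an adjusted p, and such genes count as not called in its share. At an unadjusted p under 0.05 edgeR's quasi-likelihood test had 1 of 9 members, lower in het, where it had 5.83% of genes, 3.38% lower and 2.44% higher. Groups that did not overlap were seen in 2 of 9 members, both lower, against 11.7% of all genes in either direction with 5.85% lower and 5.88% higher. The standard errors (SE) of the log2 differences had a median of 0.07 for the members and 0.15 for all genes tested.

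**Figure D1:**
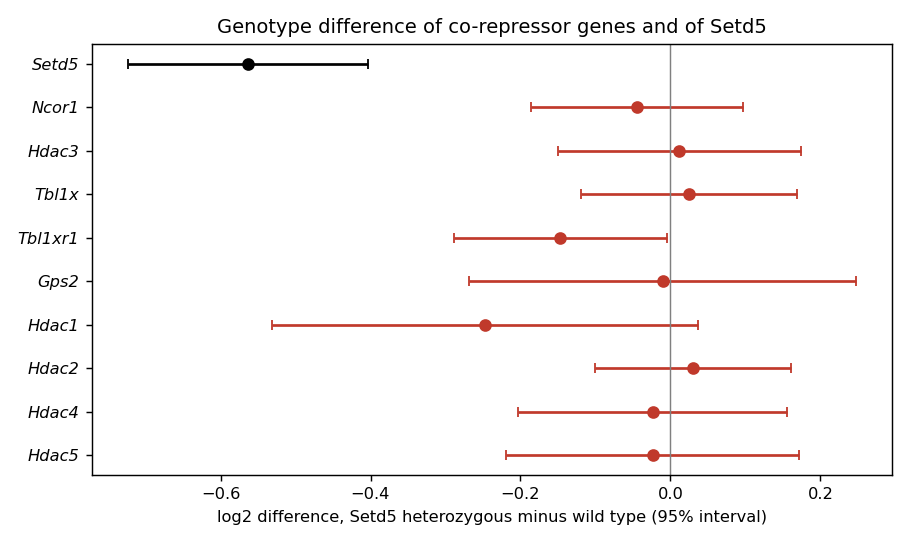
Log2 difference between het and WT cortex (horizontal axis) for Setd5 and the 9 co-repressor genes, with the 95% interval of edgeR's fit over 3 libraries a group. The interval of Setd5 ends at -0.40, while the point estimates of the members lie between -0.25 and 0.03.

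Ncor1, the scaffold, had the highest count of the 9 genes. It lies at chr11:62316426-62458541 (GRCm38, minus strand). Its level was 204, 213.8 and 202.7 CPM in het libraries 1 to 3, against 217.7, 202.3 and 219.8 CPM in WT libraries 1 to 3. The groups overlapped, since WT library 2 stood below all het libraries. Means were 206.8 ± 6.10 CPM in het and 213.3 ± 9.60 CPM in WT cortex (SD, n = 3 each), and the log2 difference was -0.04 (SE 0.06, edgeR adjusted p = 0.935).

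A stretch of the Ncor1 coding sequence has a close copy on the X chromosome, the processed pseudogene Gm6743 (61830510 to 61831575, plus strand). The copy matches 552 coding bases of Ncor1, which is 7.5% of its coding length, and 527 of them are identical. Shown here are 100 coding bases (196 to 295 of the coding sequence, 5′ to 3′) across the exon junction nearest to the middle of the matching part, because reads from stretches alike in both could be assigned to either place. Capitals mark the bases that differ.
Ncor1: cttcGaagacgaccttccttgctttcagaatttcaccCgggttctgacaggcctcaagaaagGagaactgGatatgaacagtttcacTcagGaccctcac
Gm6743: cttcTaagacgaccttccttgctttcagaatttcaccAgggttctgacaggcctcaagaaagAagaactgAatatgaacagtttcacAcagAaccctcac
The copy held between 4.86% and 5.63% of the counts of the pair in each library. Summed with the copy, Ncor1 stood at 218 ± 5.57 CPM in het and 226 ± 10.2 CPM in WT cortex (SD, n = 3 each), and the log2 difference was -0.05 (SE 0.06).

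Hdac3, the catalytic subunit of the complex, lies at chr18:37935844-37955016 (minus strand). Het libraries 1 to 3 held 55.6, 58.9 and 60.9 CPM, against 60.6, 60.01 and 53.2 CPM in WT libraries 1 to 3. The lowest value was that of WT library 3, the library with the high striatum markers, and het library 1 came next. Mean levels of 58.4 ± 2.70 CPM in het and 57.9 ± 4.12 CPM in WT cortex (SD, n = 3 each) gave a log2 difference of 0.01 (SE 0.07, edgeR adjusted p = 0.989). The 95% interval of the het level was 90.1% to 113% of WT. Without WT library 3 the difference was -0.05, without het library 3 it was -0.02, and with library totals in place of TMM factors it was -0.0027.

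Tbl1x and Tbl1xr1 encode a pair of paralogous subunits that hold the complex on histones and take part in the exchange of co-repressors for co-activators. Tbl1x lies on the X chromosome from 77511013 to 77662983, and Tbl1xr1 on chromosome 3 from 22076652 to 22216594, both on the plus strand. Tbl1xr1 held 78.0, 75.3 and 73.9 CPM in het libraries 1 to 3, against 87.1, 78.6 and 85.9 CPM in WT libraries 1 to 3. All het libraries lay below all WT libraries, but het library 1 and WT library 2 were close together. Means of 75.7 ± 2.10 CPM in het and 83.9 ± 4.60 CPM in WT cortex (SD, n = 3 each) corresponded to 90.3% of WT, and the 95% interval ran from 81.8% to 99.7%. The log2 difference of -0.15 (SE 0.06) had an unadjusted p of 0.0443 and an adjusted p of 0.855 in edgeR's test. Permuting the libraries exactly over the CPM values gave a two-sided p of 0.1, which is the smallest that 3 libraries against 3 can give.

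Tbl1x did not share that pattern. It held 69.1, 75.3 and 75.5 CPM in het libraries 1 to 3, against 69.8, 71.3 and 75.1 CPM in WT libraries 1 to 3, so the groups overlapped over nearly their whole range. Mean levels were 73.3 ± 3.64 CPM in het and 72.1 ± 2.76 CPM in WT cortex (SD, n = 3 each), and the log2 difference was 0.02 (SE 0.06, edgeR adjusted p = 0.975). Because Tbl1x is X-linked, its level was also read in the libraries with high Xist, where it was 75.5 CPM in het library 3 and 75.1 CPM in WT library 3. Among the libraries with low Xist, het library 2 reached 75.3 CPM. The 4 with low Xist thus spanned 69.1 to 75.3 CPM over both genotypes.

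Gps2, a small subunit that restrains inflammatory signalling outside the nucleus as well, lies at chr11:69913888-69916591 (plus strand). It had between 403 and 548 counts per library. Levels were 5.96, 4.89 and 5.63 CPM in het libraries 1 to 3, against 5.60, 5.71 and 5.30 CPM in WT libraries 1 to 3. Both the highest and the lowest library were het. The log2 difference was -0.01 (SE 0.11, edgeR adjusted p = 0.993), with a 95% interval from 83.03% to 119% of WT. The sign turned to 0.07 without het library 2 and to 0.01 without WT library 2.

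Nearly the whole coding sequence of Gps2 is repeated in Gm5221, a processed pseudogene of 1 exon on chromosome 16 (65793371 to 65794337, plus strand). The copy matches 967 of 981 coding bases and differs at 68 of them. The window below spans coding bases 431 to 530 across an exon junction of Gps2 and is shown because the junction is already joined in the copy, so that a read from spliced Gps2 RNA finds a nearly unbroken match there. Capitals mark the bases that differ.
Gps2: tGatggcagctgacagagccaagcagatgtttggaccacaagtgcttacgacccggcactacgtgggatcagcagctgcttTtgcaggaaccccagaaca
Gm5221: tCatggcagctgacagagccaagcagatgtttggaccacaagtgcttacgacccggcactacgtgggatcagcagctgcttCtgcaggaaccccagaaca
Gm5221 held 47.3% to 52.6% of the counts of the pair. Counted together they stood at 11.0 ± 0.583 CPM in het and 11.0 ± 0.508 CPM in WT cortex (SD, n = 3 each), and the log2 difference was -0.0039 (SE 0.09).

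Hdac1 was the member with the fewest counts, 294 to 398 per library. It lies at chr4:129516104-129542713 (minus strand) and encodes a class I deacetylase known in adult brain mainly from glia. Het libraries 1 to 3 held 3.25, 3.57 and 3.47 CPM, against 3.71, 4.47 and 4.03 CPM in WT libraries 1 to 3. The groups did not overlap, and het library 2 and WT library 1 were nearest to each other. Means of 3.43 ± 0.161 CPM in het and 4.07 ± 0.380 CPM in WT cortex (SD, n = 3 each) gave 84.3% of WT, and the 95% interval ran from 69.2% to 103%. The log2 difference was -0.25 (SE 0.13), with an unadjusted p of 0.0811 and an adjusted p of 0.864 in edgeR's test. The exact permutation p was 0.1, two-sided, the smallest possible here.

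Hdac1 has the closest copy of the 9 genes. Gm10093, a processed pseudogene of 1 exon on chromosome 17 (78491582 to 78493025, plus strand), matches 1444 of its 1446 coding bases and differs at 9 of them, with an identical run of 450 bases. All 13 exon junctions inside the matching coding sequence are joined in the copy. The window below holds coding bases 680 to 779 across one of these junctions and is shown because a single base tells the gene from the copy there. That base is in capitals.
Hdac1: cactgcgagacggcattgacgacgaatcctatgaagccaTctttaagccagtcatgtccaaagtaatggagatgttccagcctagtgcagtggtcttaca
Gm10093: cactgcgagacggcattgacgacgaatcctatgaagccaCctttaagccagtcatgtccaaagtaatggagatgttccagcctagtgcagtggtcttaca
More counts were assigned to the copy than to the gene in every library. Gm10093 took 80.4%, 79.6% and 79.4% of the pair's counts in het libraries 1 to 3, against 78.7%, 76.9% and 77.9% in WT libraries 1 to 3.

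The difference of Hdac1 was smaller when the copy was counted with it. The sum stood at 16.6, 17.5 and 16.9 CPM in het libraries 1 to 3, against 17.4, 19.4 and 18.2 CPM in WT libraries 1 to 3, and the groups overlapped. Its log2 difference was -0.11 (SE 0.08, unadjusted p = 0.183 in edgeR's test), or 92.6% of WT with a 95% interval from 82.1% to 104%. The copy alone stood at 13.6 ± 0.309 CPM in het and 14.3 ± 0.599 CPM in WT cortex (SD, n = 3 each), and the log2 difference was -0.07 (SE 0.08). This sum is an alternative chosen after seeing the data. Reads that fall wholly in stretches identical in both cannot be assigned to gene or copy with certainty, so the level of Hdac1 is uncertain. Other copies of Hdac1, on chromosomes 12, 17 and 18, had mean counts of 15.8 or less.

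**Figure D2:**
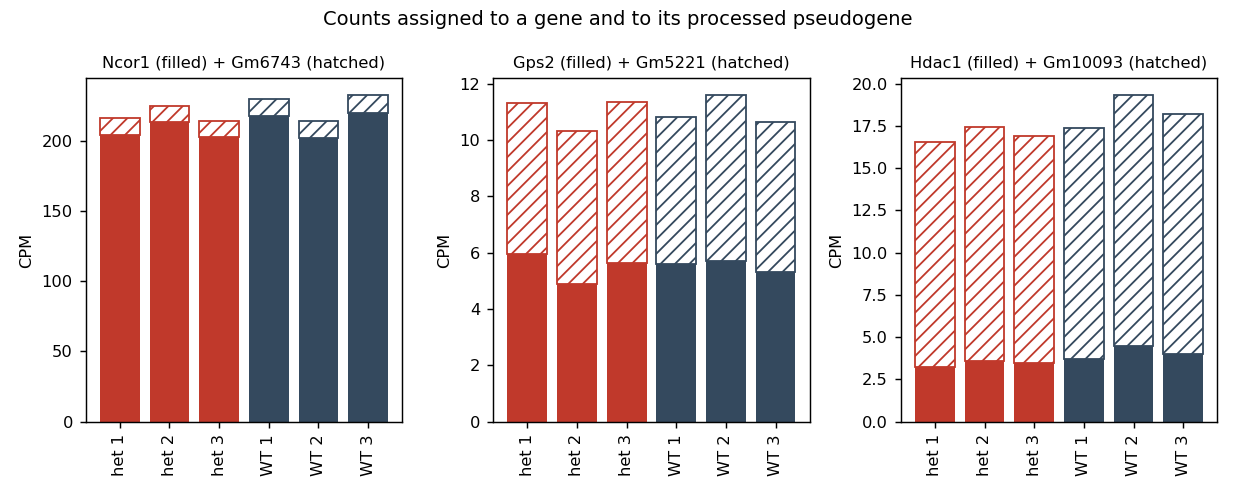
Levels in CPM assigned to 3 co-repressor genes (filled bars) and stacked on them those assigned to a close processed pseudogene (hatched bars), for 3 het (red) and 3 WT (blue) libraries. The copy holds 4.86% to 5.63% of the sum for Ncor1, 47.3% to 52.6% for Gps2 and 76.9% to 80.4% for Hdac1.

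Fitted levels of most markers lay below WT for several cell types, but not for all. All 7 oligodendrocyte markers lay above WT, with overlapping sums of 6646 to 9243 CPM in het and 5541 to 7121 CPM in WT libraries. Above and below WT lay 5 and 4 excitatory neuron, 4 and 3 interneuron, and 2 and 2 oligodendrocyte precursor markers. Of the choroid plexus markers 1 was above and 4 were below, and all 6 striatum markers were below. The striatum sums were 134 to 348 CPM in het libraries and 120, 183.5 and 874.6 CPM in WT libraries 1 to 3. Their direction thus hung on WT library 3. The 7 astrocyte markers summed to 1804 to 1929 CPM in het and 1956 to 2040 CPM in WT libraries, and 6 of the 7 had a fitted level below WT. Sums of the 6 endothelial markers were 115 to 121 CPM in het and 123 to 131 CPM in WT libraries, and 5 of the 6 were below WT. Pericyte and smooth muscle markers summed to 67.9 to 71.1 CPM in het and 81.5 to 121 CPM in WT libraries, with 6 of 6 below WT. Meningeal fibroblast markers (38.5 to 43.0 CPM in het, 41.5 to 88.5 CPM in WT) and microglia markers (336 to 370 CPM in het, 368 to 406 CPM in WT) overlapped, with 6 of 6 and 7 of 7 below WT. None of these lists had a marker at 0. Neither Hdac1 nor Tbl1xr1 passed edgeR's test, and the part of these lists in their lower fitted levels was not tested. Without WT library 3, the one with high striatum markers, the log2 difference was -0.25 for Hdac1 and -0.13 for Tbl1xr1. WT library 2 had the highest Hdac1 level and the highest pericyte and meningeal sums, at 121 and 88.5 CPM. Among het libraries the order was the reverse, with library 1 lowest for Hdac1 (3.25 CPM) and highest for both sums (71.1 and 43.0 CPM). Astrocyte sums were highest in WT library 3, and endothelial and microglia sums in WT library 1. Without WT library 2 the log2 difference was -0.18 for Hdac1 (unadjusted p = 0.225 in edgeR's test) and -0.20 for Tbl1xr1.

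Hdac2, the class I deacetylase known to be prominent in mature neurons and to limit synaptic plasticity, lies at chr10:36974544-37001889 (plus strand). It held 108, 105 and 104 CPM in het libraries 1 to 3, against 101, 107.8 and 101 CPM in WT libraries 1 to 3. WT library 2 lay within the het range and the other WT libraries just below it. The mean was 105.6 ± 2.21 CPM in het and 103.5 ± 3.73 CPM in WT cortex (SD, n = 3 each), and the log2 difference was 0.03 (SE 0.06, edgeR adjusted p = 0.96). At 93.2% to 112% of WT, its 95% interval was the narrowest of the 9 genes on the log2 scale.

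The class IIa genes were close to WT as well. Hdac4, whose protein is a brake on synaptic gene expression, lies at chr1:91928779-92195699 (minus strand). It held 45.0, 40.8 and 45.4 CPM in het libraries 1 to 3, against 40.3, 45.7 and 47.3 CPM in WT libraries 1 to 3, and its log2 difference was -0.02 (SE 0.08, edgeR adjusted p = 0.982). The groups covered nearly the same range. A lincRNA on the opposite strand, Gm26720, overlaps 22.4% of the merged exons of Hdac4, and the kit does not mark strand. That transcript had a mean of 47.5 counts. Since the counting settings are not given, this does not show how many reads of the shared part were counted for Hdac4.

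Hdac5, the class IIa gene whose protein leaves the nucleus on neuronal activity, lies at chr11:102194432-102230166 (minus strand). Its levels were 87.2, 87.3 and 83.9 CPM in het libraries 1 to 3, against 94.1, 75.3 and 93.3 CPM in WT libraries 1 to 3. WT library 2 was the lowest of all libraries and the other WT libraries were the highest, so the het group lay inside the WT range. The spread was 2.21% of the mean in het and 12.1% in WT libraries, the widest gap between groups among the 9 genes. Its log2 difference was -0.02 (SE 0.09, edgeR adjusted p = 0.984), with a 95% interval from 85.9% to 113% of WT. Without WT library 2 the log2 difference was -0.13, at an unadjusted p of 0.0601, and without WT library 1 it was 0.03.

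**Figure D3:**
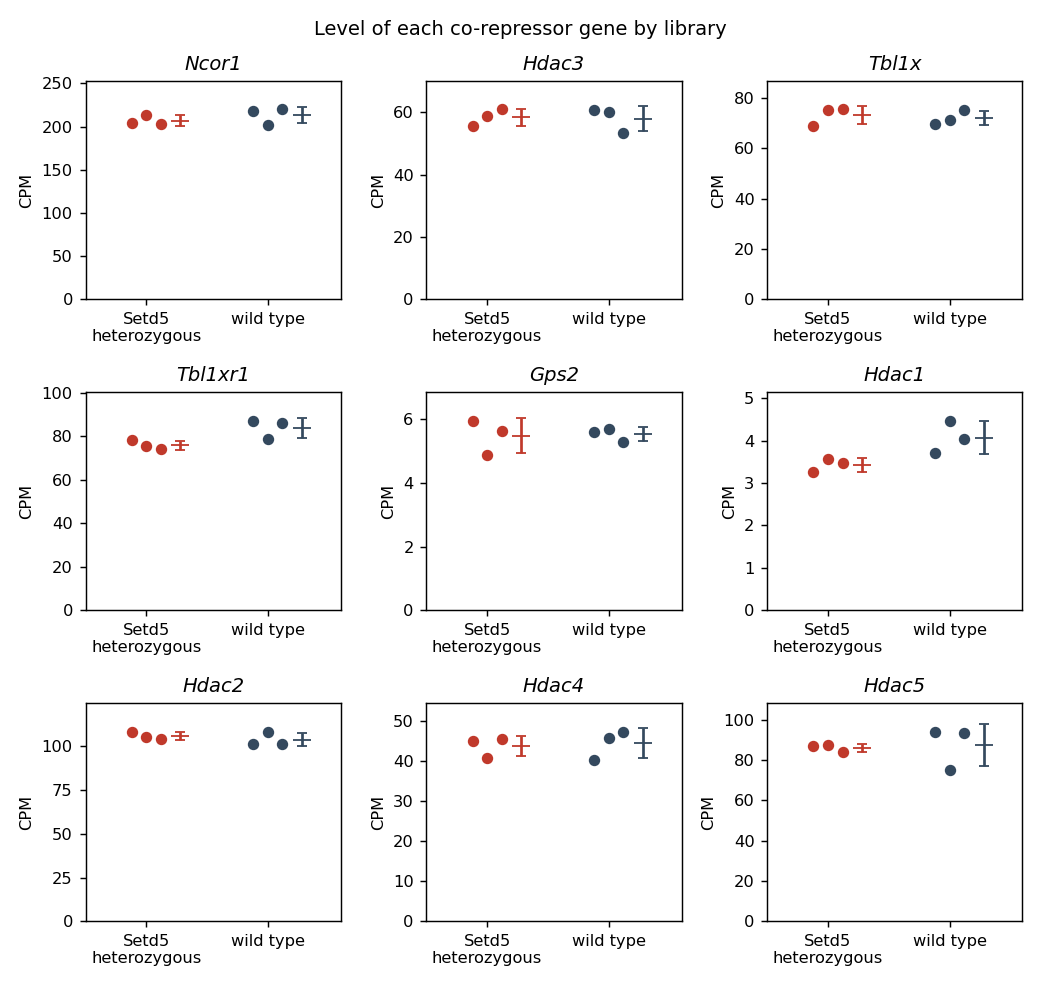
Level of each of the 9 genes in CPM (vertical axis, from 0) in 3 het libraries (red, left) and 3 WT libraries (blue, right), with the mean and SD of each group beside the points. The groups are apart for Tbl1xr1 and Hdac1 and overlap for the other 7 genes.

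Spread between libraries differed among the members. Over all 6 libraries the coefficient of variation was 2.86% for Hdac2, 3.82% for Ncor1 and 4.08% for Tbl1x, and 11.7% for Hdac1. Counting error alone gives 1.04% for Hdac2 and 0.736% for Ncor1, but 5.51% for Hdac1 and 4.54% for Gps2, which varied by 6.76%. Hdac1 and Gps2 are therefore the members with the largest counting error. Their low counts are not a matter of depth alone. The copies held 76.9% to 80.4% of the counts of the pair for Hdac1 and 47.3% to 52.6% for Gps2. These counting errors do not cover the spread added by amplification, since the reads carry no molecular identifiers and may repeat a molecule.

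Levels of the 9 genes were put in order per kilobase (kb) of merged exons, as CPM per kb. Hdac2 was highest at 23.6 ± 0.494 in het and 23.1 ± 0.834 in WT cortex (SD, n = 3 each). Next came Ncor1 at 16.1 in het and 16.7 in WT, and Hdac3 at 14.4 in het and 14.3 in WT. Tbl1x (10.4 in het, 10.2 in WT), Hdac5 (9.81 in het, 9.97 in WT) and Tbl1xr1 (8.51 in het, 9.42 in WT) formed the middle.

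Gps2 followed at 3.42 in het and 3.45 in WT, Hdac4 at 2.76 in het and 2.81 in WT, and Hdac1 at 0.996 in het and 1.18 in WT, all as CPM per kb. The order of the means was the same in both genotypes. Neighbours in that order were apart in every library of a group, except that Tbl1x and Hdac5 overlapped in both genotypes and Hdac5 and Tbl1xr1 in WT. With the copies added, Gps2 stood at 6.85 in het and 6.87 in WT, and Hdac1 at 4.93 in het and 5.32 in WT, above Hdac4. Per kb of the longest coding transcript Hdac3 stood above Ncor1, at 28.8 against 22.9 in het libraries and 28.5 against 23.6 in WT libraries. In all, 6 of the 9 genes changed place under that length, so the order rests in part on the exon length chosen.

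**Figure D4:**
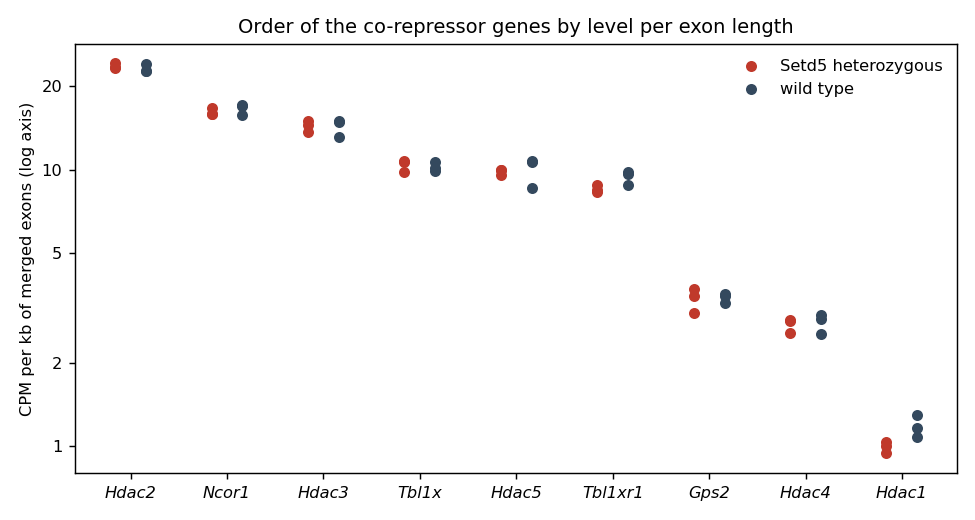
Level of the 9 genes in CPM per kb of merged exons (log axis) in single libraries, het in red to the left of WT in blue. The order runs from Hdac2, at 22.7 to 24.2 over all libraries, to Hdac1, at 0.944 to 1.30.

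Balance between paralogs was compared as the log2 ratio of CPM per kb within a library, which does not depend on the scaling of libraries. Hdac1 over Hdac2 was -4.68, -4.50 and -4.53 in het libraries 1 to 3, against -4.39, -4.21 and -4.28 in WT libraries 1 to 3. The groups did not overlap and the mean ratio differed by -0.27. With Gm10093 counted in, the ratio was -2.33, -2.21 and -2.24 in het libraries 1 to 3, against -2.16, -2.10 and -2.10 in WT libraries 1 to 3, again apart and with a difference of -0.14. In both cases the two-sided exact permutation p was 0.1, the smallest possible, and 0.4 when adjusted over the 4 ratios tested.

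For Tbl1x over Tbl1xr1 and Hdac4 over Hdac5 the groups overlapped. Tbl1x over Tbl1xr1 was 0.29 ± 0.11 in het and 0.12 ± 0.09 in WT cortex (SD, n = 3 each, exact permutation p = 0.2, adjusted over 4 ratios p = 0.4). Hdac4 over Hdac5 was -1.83 ± 0.11 in het and -1.82 ± 0.25 in WT (SD, n = 3 each, exact permutation p = 1.0).

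Around the complex, 106 further genes in 9 lists were read from the same fit, and 0 passed edgeR's quasi-likelihood test or DESeq2 after adjustment. At an unadjusted p under 0.05 there were 7 of 106, or 6.6%, 5 higher and 2 lower, close to the 5.83% of all genes tested. Groups did not overlap for 10 of them, or 9.43%, against 11.7% of all genes. In the sentences that follow, differences are log2 values of edgeR's fit, none of which passed, and names follow the 2 smallest p-values of a list.

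Among 6 partners of the scaffold the median difference was 0.02, with 3 above and 3 below WT and 0 at an unadjusted p under 0.05. Kmt2e, a relative of Setd5 that is also known to bind the complex, stood at 137 ± 7.43 CPM in het and 124 ± 11.4 CPM in WT cortex (SD, n = 3 each), a difference of 0.14 (SE 0.08) that was 0.07 without WT library 2 and 0.09 without het library 1. Coro2a, an actin-binding protein of the complex, stood at 30.0 ± 2.57 CPM in het and 27.2 ± 1.18 CPM in WT (SD, n = 3 each), also 0.14 (SE 0.08). Its groups did not overlap, but the nearest libraries were at 28.26 CPM in het and 28.04 CPM in WT, and without het library 1 the difference was 0.07. Exons of Kmt2e share 9.31% of their bases with Srpk2 on the other strand, so its reads are not all its own with certainty.

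The 6 other zinc-dependent deacetylases had a median of -0.04, with 5 below WT and 0 at an unadjusted p under 0.05. Hdac9, of class IIa, differed by -0.18 (SE 0.13). The value of Hdac9 hung on single libraries, at -0.04 without WT library 1, -0.33 without WT library 3 (unadjusted p = 0.00156 in edgeR's test) and -0.35 without both libraries with high Xist. Hdac11, the class IV enzyme, differed by -0.07 (SE 0.07), or between -0.14 and -0.04 with single WT libraries left out, with 15.4% of its exon bases shared with the transcript Gm44002. The 7 sirtuins, which use NAD, had a median of 0.06. Sirt2, a deacetylase abundant in myelin, held 136, 159 and 176 CPM in het libraries 1 to 3, against 133, 148 and 113 CPM in WT libraries 1 to 3, a difference of 0.26 (SE 0.12, unadjusted p = 0.0522), or 0.16 without WT library 3 and also without het library 3. Without both of these libraries, which are the ones with high Xist, it was 0.07 (unadjusted p = 0.459 in edgeR's test). Beside it, the 7 oligodendrocyte markers summed to 6646, 7943 and 9243 CPM in het libraries 1 to 3, against 5541, 7121 and 6338 CPM in WT libraries 1 to 3, with 7 of 7 above WT and none at 0, and their part in the Sirt2 value was not tested. The mitochondrial enzyme gene Sirt3, which shares exon bases with Ric8a and Psmd13 on the other strand, differed by 0.15 (SE 0.07).

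Subunits of the Sin3, NuRD and CoREST complexes, the main homes of Hdac1 and Hdac2, were listed together with Dnttip1, Elmsan1, Mier1, Mier2 and Mier3. The 28 genes had a median of -0.02, with 2 at an unadjusted p under 0.05, both below WT. These were Sap18, a Sin3-associated protein, at 34.3 ± 0.954 CPM in het and 38.1 ± 1.89 CPM in WT cortex (SD, n = 3 each, difference -0.15, SE 0.07), and Hmg20b, a CoREST component, at 10.5 ± 0.855 CPM in het and 12.2 ± 0.606 CPM in WT (SD, n = 3 each, difference -0.21, SE 0.09). In both genes the groups did not overlap. The difference of Hmg20b was -0.15 without het library 2 and -0.17 without WT library 1, at unadjusted p-values of 0.198 and 0.144 in edgeR's test. The longest Sap18 transcript shares 780 identical bases with Sap18b on chromosome 8, which had a mean of 3928 counts, so its level is uncertain, and without WT library 3 the difference of Sap18 was -0.11, and -0.09 without both libraries with high Xist.

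The 21 transcription factors that recruit NCoR had a median of -0.01, with 2 at an unadjusted p under 0.05, both above WT. Zbtb16, a zinc finger repressor, held 47.7, 48.9 and 51.0 CPM in het libraries 1 to 3, against 40.1, 44.5 and 27.5 CPM in WT libraries 1 to 3, a difference of 0.40 (SE 0.15). WT library 3, the library with the high striatum markers, was its lowest, and without it the difference was 0.22, and without both libraries with high Xist 0.19. Rara, a retinoic acid receptor, differed by 0.37 (SE 0.16) at 7.17 ± 0.667 CPM in het and 5.55 ± 1.30 CPM in WT (SD, n = 3 each), and by 0.24 without WT library 3 and 0.57 without WT library 1.

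Among 8 genes that respond to thyroid hormone in brain, whose receptors silence targets through the complex, 4 lay above and 4 below WT and the median was 0.02. At an unadjusted p under 0.05 there were 3, all above WT, where edgeR's test had 5.83% of all genes tested, 2.44% higher. The list was chosen with earlier results of these data known. Hr, itself a nuclear receptor co-repressor, held 58.4, 49.5 and 44.3 CPM in het libraries 1 to 3, against 40.8, 42.6 and 39.4 CPM in WT libraries 1 to 3. Its difference was 0.31 (SE 0.10, unadjusted p = 0.0105, adjusted p = 0.797). Klf9, a zinc finger factor induced by thyroid hormone, held 461, 440 and 422 CPM in het libraries 1 to 3, against 355, 417 and 345 CPM in WT libraries 1 to 3, a difference of 0.24 (SE 0.08, unadjusted p = 0.0159, adjusted p = 0.828). In Hr and Klf9 every het library lay above every WT library, but without het library 1 the difference of Hr was 0.19, at an unadjusted p of 0.0524 in edgeR's test. The nearest libraries of Klf9 were at 422 CPM in het and 417 CPM in WT. Klf9 differed by 0.21 without het library 1 and also without WT library 1, at unadjusted p-values of 0.0658 and 0.0592 in edgeR's test. Among the 4 genes below WT, Dio3, whose enzyme inactivates thyroid hormone, also had groups that did not overlap, at 0.218, 0.340 and 0.352 CPM in het libraries 1 to 3, against 0.485, 0.404 and 0.635 CPM in WT libraries 1 to 3. Its difference was -0.75 (SE 0.34, unadjusted p = 0.0528 in edgeR's test). Dio3 had the lowest level of the 8 genes and rests on few counts, since 3 counts make 0.0323 to 0.0362 CPM in these libraries. Rasd2, known from striatum, differed by -0.70 (SE 0.42), with WT library 3 at 130.3 CPM against 33.6 to 51.6 CPM in the other 5 libraries of both genotypes. Dio3 and Rasd2 were named after their values were seen. The third gene at an unadjusted p under 0.05 was Mbp, a myelin protein gene, at 0.39 (SE 0.17). It held 3508, 4251 and 5626 CPM in het libraries 1 to 3. WT libraries 1 to 3 were at 2869, 3959 and 3362 CPM, so the groups overlapped. Mbp was likewise named after its values were seen, with the oligodendrocyte markers given above beside it.

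Clock genes that the Rev-erb receptors silence through NCoR had a median of 0.03 over 5 genes, with 0 at an unadjusted p under 0.05. Cry1 differed by 0.23 (SE 0.12), or 0.13 without WT library 3. Nfil3 differed by 0.23 (SE 0.13), or 0.10 without het library 1 and 0.35 without both libraries with high Xist. The 13 partners of class IIa deacetylases had a median of 0.02, with Ywhah, a 14-3-3 protein gene, at 0.20 (SE 0.09) and Mef2b at 0.35 (SE 0.22). Mef2b was at 0.17 without het library 2 and 0.52 without het library 3. Its mean level was low, at 1.405 CPM in het and 1.10 CPM in WT libraries. It shares 4.42% of its exon bases with Borcs8 on the same strand, which had a mean of 2388 counts, so its reads are not all its own with certainty. The 13 histone acetyltransferases and coactivators, which oppose the complex, had a median of 0.02 and spanned -0.07 to 0.08. Ncoa6 differed by 0.07 (SE 0.06), or 0.04 without het library 3, and Kat8 by 0.08 (SE 0.08), or 0.05 without both libraries with high Xist.

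**Figure D5:**
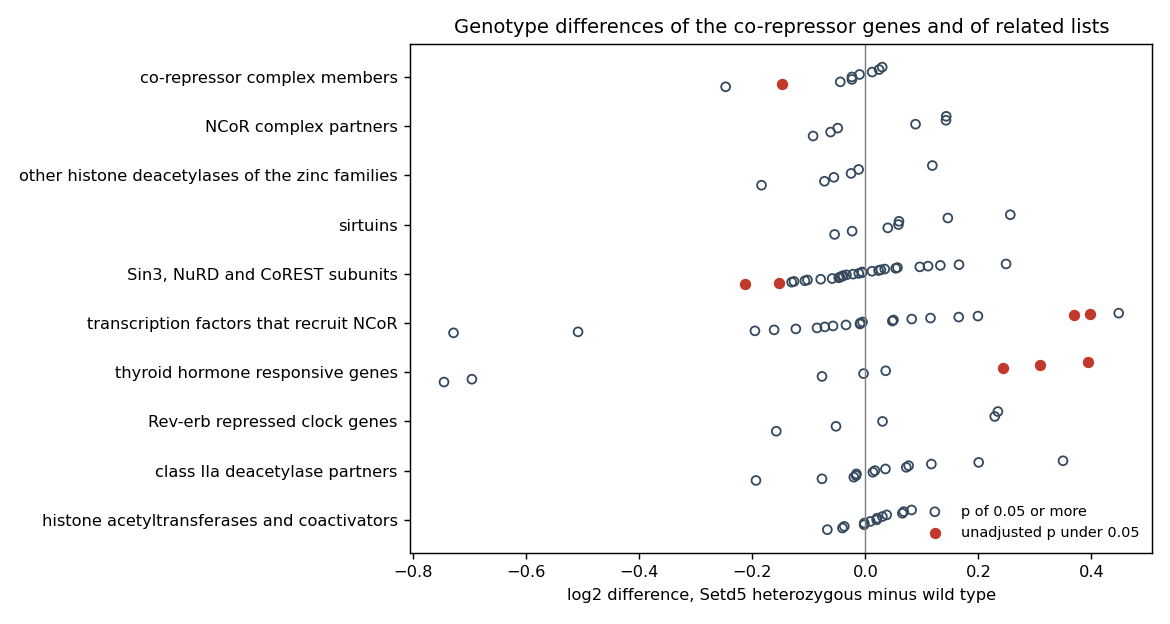
Log2 difference between het and WT cortex (horizontal axis) of single genes, for the 9 co-repressor genes (top) and 9 related lists, with genes at an unadjusted p under 0.05 filled in red. The members span -0.25 to 0.03 and the acetyltransferases -0.07 to 0.08, while single genes of the transcription factor list span -0.73 to 0.45.

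Genes whose pattern over the 6 libraries was most like that of Ncor1 or Hdac3 were taken by the root mean square difference of log2 CPM, each gene relative to its own mean. For Ncor1 these were Slc11a2 (0.012), Ccnd2 (0.0128) and Dcaf11 (0.0149), among 9764 genes compared. For Hdac3 they were Orc5 (0.012) and Ing4 (0.0196), among 9449. With 6 libraries and this many genes, likeness of this size is a description of these libraries.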

How the data were processed

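The authors deposited raw counts of reads per gene, 1 table per library, in whole numbers and not normalized. Per the labels' protocols, polyadenylated RNA was isolated with Trizol and sequenced from TruSeq v2 libraries, which do not mark strand. Per the submitters' processing notes, the tools named are Bowtie2 2.3.4.3 (an aligner), featureCounts (a counter), DESeq2 and FastQC, and the builds are mm10 and GRCm38.p6, with no order or role. The sources used here do not give the settings for strand or for reads that match several places. Alignment by Bowtie2 alone does not span introns, which bears on genes with intron-less copies.

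All 55450 identifiers matched GENCODE M21 (GRCm38), which gave symbols, positions, exon lengths and sequences. Every pair of libraries differed by more than counting noise (chi-square per gene 9.17 to 68.53). The value ran from 9.17 to 42.11 for het pairs, 35.97 to 68.53 for WT pairs and 13.15 to 56.89 for pairs across genotype. Pairs within a genotype were thus not always closer than pairs across. Genes were kept by filterByExpr of edgeR 4.0.16 (minimum count 10, minimum total 15), scaled with TMM and tested with glmQLFit and glmQLFTest in R 4.3.3 without covariates, with Benjamini-Hochberg adjustment over 27939 genes and a threshold of 0.05. SE and 95% intervals come from that fit with 9.43 degrees of freedom. CPM use TMM-scaled library sizes. Single values were compared by two-sided exact permutation tests (scipy 1.17.1). Copies were sought with blastn 2.17.0 (90% identity over 200 bases) among M21 transcripts, where no member matched another member; the same search was made for the related lists. Alternatives were other scalings, filters and tests (DESeq2 1.42.0, limma 3.58.1), libraries left out, mitochondrial genes left out and, added after seeing the data, sex read from Xist (above 10 CPM) as a covariate, copies summed and another exon length.

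The rule for named genes takes all 9 members and Setd5, the 2 smallest p-values of each list, and the 3 genes most like Ncor1 and Hdac3 (mean CPM at least 10). Of these, 1 like gene and 1 of 4 paralog ratios are not reported here. The members and lists were chosen with earlier results of these data known.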

Additional observations from a re-analysis of the deposited data

How the results depend on the processing

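No paired analysis was possible because the labels give the libraries no numbers that the genotypes share. Under every alternative run, 0 of the 9 members and 0 of the 106 related genes (these with DESeq2 and with single libraries left out) passed an adjusted p of 0.05. Over all genes, where edgeR's quasi-likelihood test called 0, 6 were called with no filter on low counts, 62 by DESeq2, 2 by limma-voom with quality weights and 29 by edgeR's likelihood ratio test, and between 0 and 2 with single libraries left out (2 without WT library 2); the cause was not tested. Setd5 passed with no filter (log2 difference -0.57), in DESeq2 (-0.57), with quality weights (-0.59) and in the likelihood ratio test (-0.56). Tbl1xr1 ran from -0.20 to -0.12 and Hdac1 from -0.31 to -0.18 with single libraries left out, always below WT; the unadjusted p of Tbl1xr1 was above 0.05 in DESeq2 (0.0577), in the likelihood ratio test (0.112), without the libraries with high Xist (0.163) and on leaving out any library other than WT library 2, which gave 0.00956.

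Members near 0 changed sign, other than Ncor1 (-0.0852 to -0.0215 with single libraries left out) and Hdac2 (0.009 to 0.0561). Hdac3 was at -0.0027 with library totals, -0.0202 with quality weights and -0.0766 without the libraries with high Xist, Hdac4 at 0.0003 with quality weights and Hdac5 at 0.0423 without the libraries with high Xist. With single libraries left out Hdac3 ran from -0.0452 to 0.0465, Tbl1x from -0.0017 to 0.0613, Gps2 from -0.0773 to 0.0671, Hdac4 from -0.0891 to 0.0245 and Hdac5 from -0.1253 to 0.0317. The difference of the ratio Hdac4 over Hdac5 ran from -0.13 to 0.12. In the order of levels per kb, 6 members changed place with the length of the longest coding transcript and 2 with copies summed. Counting error was largest for Hdac1 and Gps2, with 548 counts or fewer in each library.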
